A study of Arabidopsis thaliana with 8 samples.

Results

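The 50 genes described here gave the brightest single-gene probes in wild-type (WT) plants of Arabidopsis thaliana. The 692 probes that the platform annotation pairs with exactly 1 gene were ranked by their mean deposited intensity in the WT samples, and the first 60 were taken less 10 genes that the selection leaves out. The 50 genes stand on 50 probes, out of 692 single-gene probes and 3439 probes on the array. The genes were thus chosen by their WT intensities, while petc values played no part. The dimmest of them were AT5G66780 at 1.33, AT3G17550 at 1.32 and AT2G46300 at 1.31 in mean WT intensity, and the next probes down the ranking, AT5G14910 at 1.31, AT4G13680 at 1.31 and AT4G08940 at 1.24, were close below, so the lower end of the ranking is not a step in the data.

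Total RNA was measured in 4 samples of the petc mutant and in 4 WT samples, numbered 1 to 4 in each group. All were of the ecotype Landsberg, and the petc mutant is without the Rieske protein, a subunit of the cytochrome b6f complex. The labels name no tissue, plant age, growth condition, petc allele or source of the replicates, so the p-values rest on the spread among these samples, and that spread may be technical. PETC was not analysed here, and 0 of 11 marker genes for green tissue, root plastids and senescence lay on a single-gene probe, so neither the mutation nor the tissue was checked through its markers.

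The cytochrome b6f complex links the photosystems: it oxidises plastoquinol, passes electrons through the Rieske iron-sulfur protein towards plastocyanin, and moves protons into the thylakoid lumen. The state of the plastoquinone pool and of the chloroplast is known to affect transcription of nuclear genes as well as plastid genes. Most chloroplast proteins are encoded in the nucleus, and the level of their mRNAs responds to light, the circadian clock, sugar and hormone signals.

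A probe's intensity depends on its length, sequence and labelling as well as on the amount of its transcript. The ranking is therefore one of probe brightness, not of transcript copies, and the intensities of different genes are not set against each other as amounts. No value of the 50 genes was listed at 0 and 0 of them reached the ceiling of 100, with single values from 0.325 to 60.4. WT means lay above 10 for 4 genes, from 2 to 10 for 22 and below 2 for 24. Among all 3439 probes, most without a single gene name, the brightest of the 50 ranked 11 and the dimmest 319 in WT.

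**Figure D1:**
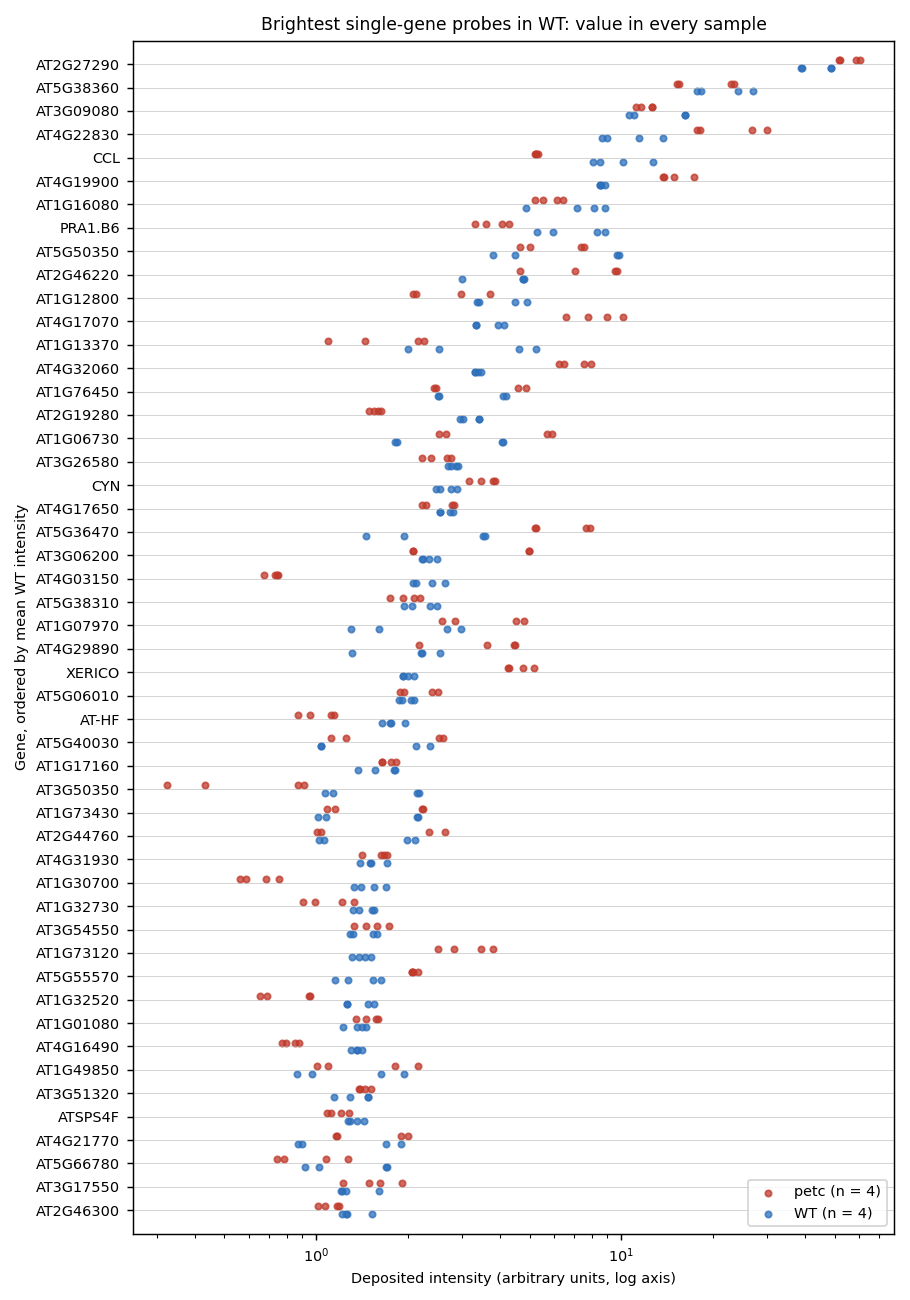
Deposited intensity (arbitrary units, log axis) of the 50 genes in every sample, petc above WT on each line and genes ordered by mean WT intensity. AT2G27290 is the brightest with 51.8 to 60.4 in petc and 38.7 to 48.8 in WT, and genes such as AT4G03150, AT1G30700 and AT4G16490 have petc values well to the left of WT.

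In petc, 9 of the 50 transcripts were higher and 13 lower, and 28 did not pass the test. This test takes the 4 samples of a group as independent, but numbers 1 with 2 and 3 with 4 ranked the probes more alike (Spearman rho across probes 0.975 to 0.988) than numbers across those pairs (0.902 to 0.923). With each such pair treated as correlated readings 13 genes were called, 5 higher and 8 lower, and with the mean of each pair 0 were. The largest differences were a fall in AT4G03150 (log2 fold change -1.77) and a rise in AT5G36470 (log2 fold change 1.11). The rise of AT5G36470 was 0.19 in numbers 1 and 2 against 2.02 in numbers 3 and 4, and its call was lost with the replicate block (adjusted p in limma = 0.0717), a model that compares petc with WT among samples of the same number, with correlated readings (0.116) and without any one of 6 samples. The replicate block likewise takes its 4 same-numbered pairs as independent, although numbers 1 with 2 and 3 with 4 were alike. XERICO, a RING finger gene known for raising abscisic acid levels, rose 1.94-fold, and CCL, a light-regulated gene whose mRNA stability follows the circadian clock, was 2.23-fold lower. Fold changes are petc over WT on quantile normalised log2 intensities, the test is limma over all 2947 testable probes, and a gene is called at a Benjamini-Hochberg adjusted p under 0.05. All 50 genes had enough values to be tested. In what follows, values listed for every sample are deposited intensities of samples 1 to 4 of each group, and values given with an SE are log2 fold changes. In these whole-sample RNA measurements, fewer cells of a type and less RNA per cell cannot be told apart.

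The share called was 44.0% for the 50 genes, 27.9% for all tested probes and 55.0% for the 269 other tested probes at least as bright in WT as the dimmest of the 50. The share was thus above that of all probes and below that of equally bright ones. The genes that the selection leaves out were not removed from the 269, and their part in this gap was not tested. Higher calls made up 18.0% of the 50 genes, 12.7% of all tested probes and 17.1% of the equally bright ones. Lower calls made up 26.0% of the 50, 15.3% of all and 37.9% of the equally bright ones. Because WT brightness chose the genes, falls are favoured in them. The median log2 fold change was -0.069 over the 50 genes, -0.018 over all tested probes and -0.22 over the equally bright ones. With values as deposited the median of the 50 turned to 0.078, beside 0.046 for all tested probes and -0.076 for the equally bright ones. With median centring it was 0.052, beside 0.021 and -0.10. At least 2-fold changes that passed numbered 9, with 2 higher and 7 lower, or 18.0% of the 50 genes, 7.57% of all tested probes and 21.9% of the equally bright ones. This balance moved with the scaling. As deposited, CCL (-0.88) and PRA1.B6 (-0.87) fell less than 2-fold and AT1G13370 was not called. AT4G17070 (1.17), AT4G32060 (1.06), XERICO (1.21) and AT1G73120 (1.14) then rose more than 2-fold and were called. Median centring moved these genes in the same way. Shares of all tested probes at 2-fold with these scalings are not given here.

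All 4 petc values lay above all WT values for 9 genes and below them for 16, against 14.6% and 17.6% of all tested probes and 20.1% and 42.8% of the equally bright ones. Together these were 25 of the 50 genes, against 32.3% of all tested probes and 62.8% of the equally bright ones. With values as deposited the same counts were 10 above and 10 below, and after median centring they were 9 above and 11 below.

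**Figure D2:**
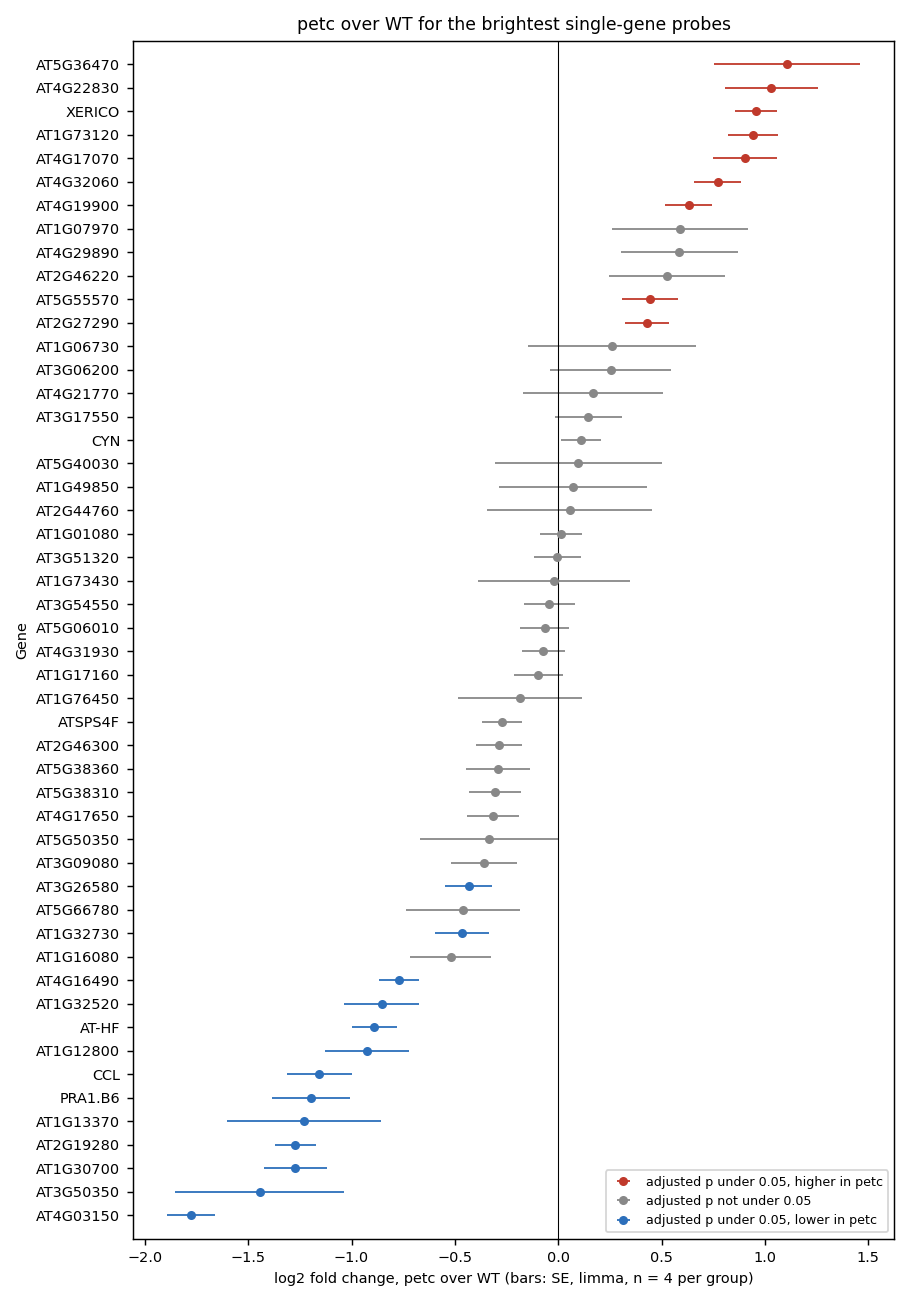
log2 fold change of petc over WT for the 50 genes, with bars for the SE from limma (n = 4 per group). The 9 genes called higher lie between 0.43 and 1.11 and the 13 called lower between -1.77 and -0.43.

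Among the 10 brightest genes, 3 rose, 2 fell and 5 did not pass. AT2G27290, the brightest, had 60.4, 58.8, 51.8 and 52.003 in petc, against 48.6, 48.8, 38.7 and 39.2 in WT (deposited intensity, samples 1 to 4 of each group). The groups did not overlap, and it rose by 0.43 ± 0.11 (± SE, adjusted p = 0.0187 in limma). The call was lost without petc sample 4 (adjusted p in limma = 0.0511), with values as deposited (0.0568) and after median centring (0.113). Its adjusted p lay between 0.00977 and 0.332 across the alternatives.

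AT4G22830 belongs to the YCF49-like family, whose members are found in cyanobacteria and plastids. Its values were 17.7, 18.1, 30.1 and 26.8 in petc, against 8.64, 8.99, 13.7 and 11.4 in WT. Every petc value was above every WT value, and in both groups numbers 3 and 4 were brighter than 1 and 2. The rise was 1.03 ± 0.23 (± SE, adjusted p = 0.0107 in limma), a 2.04-fold difference.

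AT4G19900, of the alpha 1,4-glycosyltransferase family, had 17.4, 14.8, 13.7 and 13.8 in petc, against 8.50, 8.56, 8.86 and 8.49 in WT. The WT samples were almost level and all petc samples were brighter, with a rise of 0.63 ± 0.11 (± SE, adjusted p = 0.00463 in limma). The call was lost with numbers 1 with 2 and 3 with 4 as correlated readings (adjusted p in limma = 0.0878).

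CCL stood at 5.34, 5.24, 5.24 and 5.20 in petc, against 8.54, 8.10, 10.1 and 12.7 in WT. Here the petc samples were almost level, while WT differed among its samples and was brighter in all of them. CCL fell, at a log2 fold change of -1.16 ± 0.16 (± SE, adjusted p = 0.00119 in limma). PRA1.B6, named in RefSeq as a prenylated RAB acceptor and thus a family tied to vesicle trafficking, had 4.29, 4.05, 3.31 and 3.61 in petc, against 8.81, 8.32, 5.28 and 5.96 in WT. All WT values were above all petc values, and numbers 1 and 2 were the brighter ones in both groups. Its log2 fold change was -1.20 ± 0.19 (± SE, adjusted p = 0.00238 in limma), a 2.29-fold lower level in petc.

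Of the other bright genes, AT5G38360, of the alpha/beta-hydrolase family, had 15.4, 15.3, 22.9 and 23.3 in petc, against 17.6, 18.3, 24.2 and 27.1 in WT. Numbers 3 and 4 were brighter in both groups and the groups overlapped, with -0.29 ± 0.16 (± SE, adjusted p = 0.210 in limma), and adjusted p with the replicate block was 0.0128. AT3G09080, a WD40 repeat gene, had 11.6, 11.2, 12.6 and 12.6 in petc, against 16.1, 16.1, 10.6 and 11.002 in WT. As deposited its WT samples split, with numbers 1 and 2 above all petc values and numbers 3 and 4 below them all. After normalisation petc over WT was -0.74 for numbers 1 and 2 and 0.022 for numbers 3 and 4. Over all samples the difference was -0.36 ± 0.16 (± SE, adjusted p = 0.137 in limma).

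AT1G16080 had 6.44, 5.21, 5.56 and 6.15 in petc, against 7.15, 4.88, 8.16 and 8.82 in WT, with WT sample 2 below every petc value as deposited. Its log2 fold change was -0.52 ± 0.20 (± SE, adjusted p = 0.0863 in limma), and with the replicate block adjusted p = 0.0284. AT5G50350 had 5.01, 4.66, 7.37 and 7.54 in petc, against 4.47, 3.81, 9.80 and 9.68 in WT. It differed mainly between the pairs of numbers in both groups, and petc over WT was -0.34 ± 0.33 (± SE, adjusted p = 0.527 in limma). AT2G46220 had 4.67, 7.03, 9.52 and 9.69 in petc, against 3.004, 4.75, 4.80 and 4.75 in WT. Sample 1 was the lowest in each group, and the difference was 0.53 ± 0.28 (± SE, adjusted p = 0.210 in limma), with adjusted p = 0.0143 with the replicate block and 0.0497 after median centring.

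The role groups that follow were made after values were seen, so their counts are not results about the roles. Of the photosynthesis-related families 2 genes were among the 50, and AT4G22830 rose while AT1G76450, which encodes a PsbP-domain protein of the thylakoid lumen, did not pass. AT1G76450 had 2.43, 2.48, 4.59 and 4.89 in petc, against 2.53, 2.50, 4.19 and 4.09 in WT. Levels in numbers 3 and 4 were well above 1 and 2 in both groups. Its log2 fold change was -0.19 ± 0.30 (± SE, adjusted p = 0.712 in limma) and 0.078 with values as deposited, so its sign turned with the scaling.

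Of the 6 genes for RNA and chromatin functions, 0 rose and 3 fell, where lower calls made up 15.3% of all tested probes and 37.9% of the equally bright ones. With correlated readings AT2G19280 alone of the 3 stayed called. AT2G19280, a pentatricopeptide repeat gene of the family that binds organelle RNA, had 1.63, 1.48, 1.59 and 1.55 in petc, against 3.42, 3.42, 2.96 and 3.02 in WT. Both groups were tight and apart by more than 1 unit of intensity, with -1.27 ± 0.099 (± SE, adjusted p = 7.32e-05 in limma). AT1G13370, a histone H3 gene, had 1.44, 1.09, 2.16 and 2.25 in petc, against 2.53, 1.996, 4.63 and 5.24 in WT. Numbers 3 and 4 were brighter in both groups, and the higher petc values overlapped the lower WT ones as deposited though not after normalisation.

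The AT1G13370 log2 fold change was -1.23 ± 0.37 (± SE, adjusted p = 0.0413 in limma). The call was lost without any one of petc samples 1, 2, 3 and 4 (0.0927, 0.101, 0.0598 and 0.0551) or WT samples 3 and 4 (0.101 and 0.0949), as deposited (0.0783) and after median centring (0.0611). The alternatives gave adjusted p of 0.00134 to 0.303.

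AT1G12800, an S1-domain RNA-binding gene of plastids, had 2.07, 2.13, 3.70 and 2.98 in petc, against 3.37, 3.42, 4.90 and 4.50 in WT. Numbers 3 and 4 were brighter in both groups, and petc sample 3 lay above WT samples 1 and 2 as deposited though not after normalisation. The log2 fold change was -0.93 ± 0.20 (± SE, adjusted p = 0.0108 in limma), with adjusted p = 0.0822 without scaling and 0.0559 with median centring. Across the alternatives its adjusted p was 4.82e-04 to 0.198. The other genes of the group did not pass: AT1G01080, an RNA recognition motif gene, had a log2 fold change of 0.013, AT3G51320, a pentatricopeptide repeat gene, -0.0041, and AT4G21770, of the pseudouridine synthase family, 0.17.

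Of the 6 named metabolic enzymes, 1 fell and 0 rose. AT-HF (HISN4), the imidazole glycerol phosphate synthase of histidine synthesis, had 0.872, 0.952, 1.11 and 1.14 in petc, against 1.64, 1.96, 1.75 and 1.75 in WT. The groups did not overlap, and the log2 fold change was -0.89 ± 0.11 (± SE, adjusted p = 7.13e-04 in limma). CYN, the cyanase that breaks down cyanate, had 3.47, 3.18, 3.78 and 3.84 in petc, against 2.90, 2.76, 2.48 and 2.55 in WT. As deposited every petc value was above every WT value, with a rise of 0.42 (adjusted p in limma = 0.0165), but after quantile normalisation the difference was 0.11 ± 0.096 (± SE, adjusted p = 0.458 in limma). It was thus called as deposited and after median centring (0.0179) but not after quantile normalisation.

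AT3G06200, a guanylate kinase, had 2.08, 2.08, 4.98 and 4.99 in petc, against 2.22, 2.24, 2.49 and 2.35 in WT. Only petc samples 3 and 4 stood apart, near 5, and petc over WT was -0.25 for numbers 1 and 2 and 0.76 for numbers 3 and 4. Over all samples it was 0.25 ± 0.29 (± SE, adjusted p = 0.587 in limma). ATSPS4F, a sucrose-phosphate synthase, had 1.17 ± 0.0889 in petc and 1.34 ± 0.0760 in WT (mean ± SD, n = 4), with -0.27 ± 0.098 (± SE, adjusted p = 0.0727 in limma). The sugar kinase family genes of the pfkB type, AT1G06730 and AT1G17160, had log2 fold changes of 0.26 and -0.097 and did not pass. With the replicate block AT1G06730 had adjusted p = 0.0314.

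Among the 6 genes of enzyme and lipid-transfer families, AT4G19900 rose and AT1G30700 fell. AT1G30700, of the berberine bridge enzyme family of flavin-linked oxidases, had 0.754, 0.685, 0.590 and 0.563 in petc, against 1.54, 1.70, 1.40 and 1.33 in WT. Every petc value was below every WT value, at -1.27 ± 0.15 (± SE, adjusted p = 6.21e-04 in limma). AT4G29890, annotated by similarity as a choline monooxygenase, had 2.16, 3.62, 4.44 and 4.49 in petc, against 1.31, 2.54, 2.22 and 2.21 in WT. Sample 1 was the lowest in each group. Its difference was 0.59 ± 0.28 (± SE, adjusted p = 0.172 in limma), and adjusted p = 0.00839 with the replicate block. AT4G17650, of the COQ10 family that binds coenzyme Q, had -0.32 (0.0269 as adjusted p with the block), and AT3G17550, of the haloacid dehalogenase-like family, 0.15. Neither passed.

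Of 8 genes for signalling, trafficking and protein interaction, AT4G32060 rose and 3 fell. AT4G32060 encodes the plant counterpart of MICU, the calcium-binding regulator of calcium uptake into mitochondria. Its values were 7.93, 7.52, 6.47 and 6.26 in petc, against 3.31, 3.46, 3.31 and 3.38 in WT. WT was level and petc was brighter in every sample, by 0.77 ± 0.12 (± SE, adjusted p = 0.00188 in limma) or 1.71-fold.

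The falls were in PRA1.B6, AT4G16490 and AT3G26580. AT4G16490, an armadillo repeat gene, had 0.849, 0.878, 0.772 and 0.795 in petc, against 1.302, 1.42, 1.36 and 1.36 in WT. Both groups were tight and did not overlap, at -0.77 ± 0.096 (± SE, adjusted p = 7.41e-04 in limma). AT3G26580, a tetratricopeptide repeat gene, had 2.68, 2.77, 2.39 and 2.22 in petc, against 2.91, 2.87, 2.71 and 2.77 in WT. The groups overlapped slightly as deposited though not after normalisation. Its log2 fold change was -0.43 ± 0.11 (± SE, adjusted p = 0.0237 in limma). The call was lost without any one of petc samples 3 and 4 (0.0671 and 0.0584) or WT samples 1, 2 and 4 (0.0545, 0.0550 and 0.0528), and as deposited it was -0.17 with adjusted p = 0.243 (0.279 with median centring). Its adjusted p lay between 0.0106 and 0.341 across the alternatives. AT1G73430, a gene for the COG3 subunit of a Golgi tethering complex, had -0.02, AT5G40030, a protein kinase gene, 0.097, and AT1G49850, a RING finger gene, 0.07. They did not pass, and neither did AT3G09080.

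Of 3 light-regulated, stress and hormone-related genes, XERICO rose, CCL fell and AT2G46300 did not pass. XERICO had 5.17, 4.75, 4.28 and 4.24 in petc, against 1.99, 2.09, 1.92 and 1.93 in WT. The petc values were all well above the WT ones, and the normalised difference was 0.96 ± 0.10 (± SE, adjusted p = 3.18e-04 in limma). AT2G46300, of a hydroxyproline-rich family related to late embryogenesis abundant proteins, had 1.11 ± 0.0815 in petc and 1.31 ± 0.144 in WT (mean ± SD, n = 4). Its log2 fold change was -0.29 ± 0.11 (± SE, adjusted p = 0.0911 in limma), and with the replicate block adjusted p = 0.0303.

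For the other 19 genes no role is given, since the sources name none and none is certain. Of these 5 rose and 4 fell. AT5G36470 had 5.26, 5.22, 7.92 and 7.68 in petc, against 3.53, 3.57, 1.94 and 1.45 in WT. All petc values were above all WT values, but numbers 3 and 4 were higher in petc and lower in WT than numbers 1 and 2. Petc over WT was 0.19 for numbers 1 and 2 and 2.02 for numbers 3 and 4, and over all samples 1.11 ± 0.35 (± SE, adjusted p = 0.0486 in limma).

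The AT5G36470 call was lost without any one of petc samples 1, 2, 3 and 4 (0.0658, 0.0698, 0.114 and 0.118) or WT samples 3 and 4 (0.119 and 0.0949), with the replicate block (0.0717) and with no filter on probes (0.0517). The alternatives gave adjusted p of 0.00663 to 0.325.

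AT1G73120 had 2.50, 2.84, 3.80 and 3.46 in petc, against 1.31, 1.44, 1.38 and 1.51 in WT. WT was level and every petc value was above it, at 0.94 ± 0.12 (± SE, adjusted p = 8.65e-04 in limma). AT4G17070 had 6.61, 7.76, 10.1 and 8.95 in petc, against 3.34, 3.34, 4.12 and 3.95 in WT. Its petc values were again all above WT, at 0.90 ± 0.16 (± SE, adjusted p = 0.00379 in limma). AT5G55570 had 2.07, 2.07, 2.16 and 2.07 in petc, against 1.53, 1.64, 1.27 and 1.15 in WT. The petc samples were level and above a WT group that split by number, at 0.44 ± 0.14 (± SE, adjusted p = 0.0430 in limma).

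The AT5G55570 call was lost without any one of petc samples 1, 2, 3 and 4 (0.0893, 0.0932, 0.0969 and 0.0753) or WT samples 3 and 4 (0.102 and 0.0872). Across the alternatives its adjusted p was 0.00859 to 0.369.

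AT4G03150 had 0.676, 0.744, 0.732 and 0.750 in petc, against 2.12, 2.08, 2.40 and 2.65 in WT. The petc samples were level and every one was below every WT sample in deposited intensity. The log2 fold change was -1.77 ± 0.12 (± SE, adjusted p = 4.29e-05 in limma), 3.42-fold lower in petc. AT3G50350 had 0.432, 0.325, 0.870 and 0.914 in petc, against 1.13, 1.07, 2.17 and 2.14 in WT. Numbers 3 and 4 were brighter than 1 and 2 in both groups, and petc was lower within each pair of numbers, at -1.51 for numbers 1 and 2 and -1.38 for numbers 3 and 4.

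Over all samples AT3G50350 had -1.44 ± 0.41 (± SE, adjusted p = 0.0325 in limma), and the call was lost without any one of petc samples 1 and 2 (0.0795 and 0.0723) or WT samples 3 and 4 (0.0807 and 0.0822), while with the replicate block adjusted p = 3.66e-04. AT1G32520 had 0.811 ± 0.161 in petc and 1.39 ± 0.148 in WT (mean ± SD, n = 4) and -0.85 ± 0.18 (± SE, adjusted p = 0.00885 in limma). AT1G32730 had 1.11 ± 0.196 in petc and 1.45 ± 0.111 in WT, at -0.47 ± 0.13 (± SE, adjusted p = 0.0325 in limma). The AT1G32730 call was lost as deposited (0.0675) and without any one of petc samples 1 and 2 (0.0774 and 0.0823) or WT samples 2, 3 and 4 (0.0518, 0.0761 and 0.0815). Its adjusted p lay between 0.00420 and 0.349 across the alternatives.

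The 10 genes without a role that did not pass include the bright AT1G16080, AT5G50350 and AT2G46220. Of the others, AT1G07970 had a log2 fold change of 0.59 and AT5G66780 of -0.46, and with the replicate block both passed, with adjusted p = 0.00926 and 0.0224. AT5G38310 had -0.31 and likewise passed with the block (0.0113). AT5G06010, AT2G44760, AT4G31930 and AT3G54550 lay between -0.072 and 0.055. Over all 28 genes that did not pass, log2 fold changes ran from -0.52 to 0.59.

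**Figure D3:**
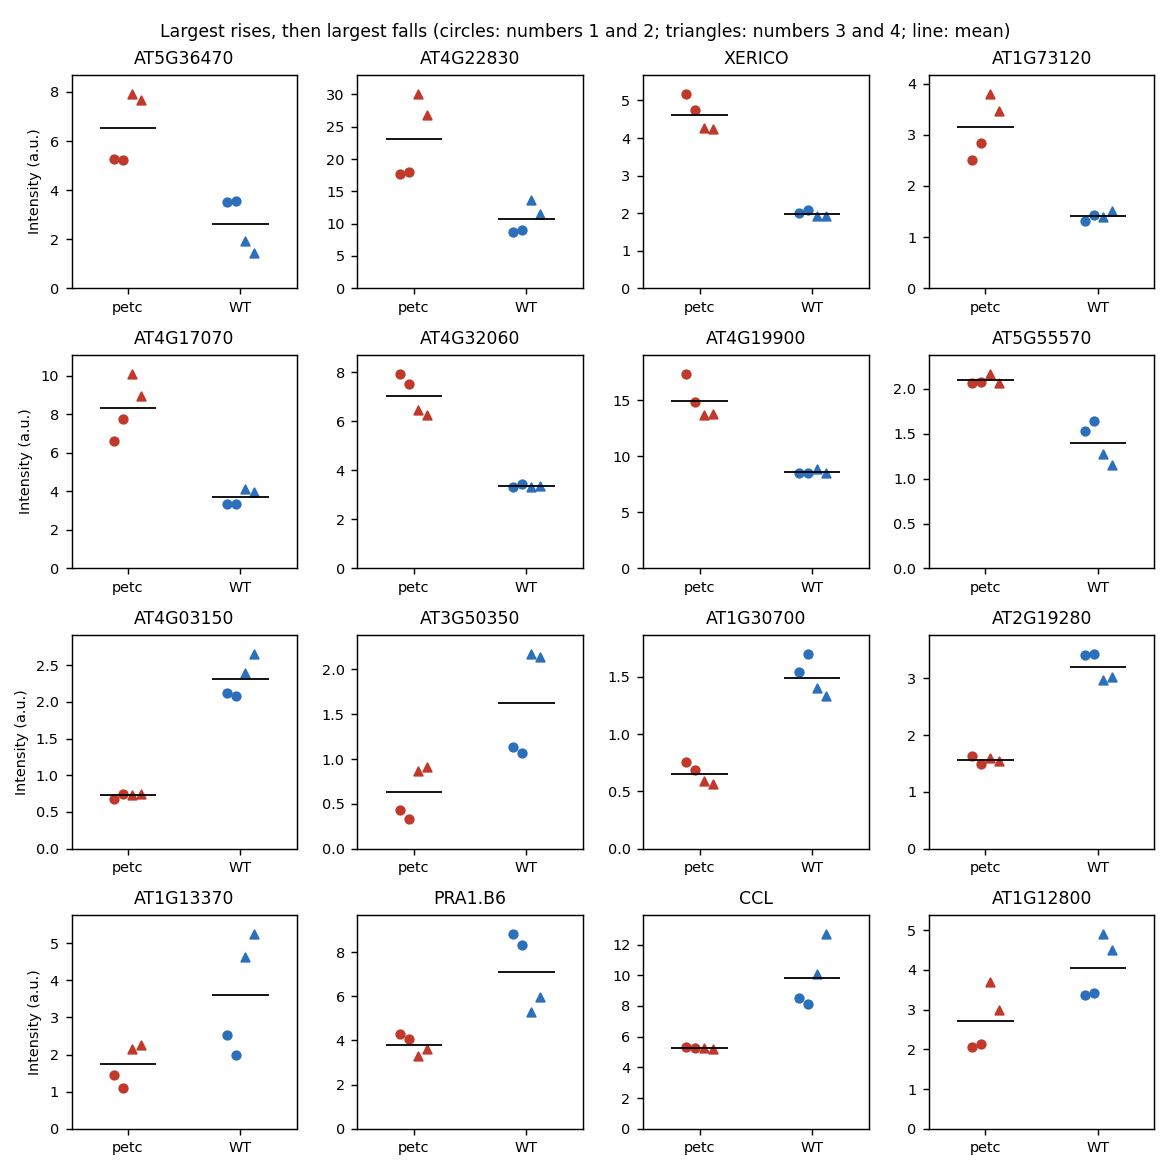
Deposited intensity in arbitrary units for the 8 largest rises (upper panels) and the 8 largest falls (lower panels) among the called genes, petc left of WT, with circles for replicate numbers 1 and 2, triangles for 3 and 4, and a line at the mean of 4 samples. In AT4G03150, AT2G19280 and XERICO the groups are tight and far apart, while AT3G50350 and AT1G13370 also split by replicate number.

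The 50 genes differed in how far the samples of a group split by number. For 20 of them the mean difference of numbers 3 and 4 from 1 and 2 was larger than that of petc from WT, against 1411 of 2947 tested probes (47.9%) and 68 of the 269 equally bright ones (25.3%). In 4 genes, AT1G06730, AT5G40030, AT3G50350 and AT2G44760, numbers 3 and 4 were at least 2-fold above 1 and 2 in both groups. A 2-fold split the same way in both groups, whichever pair was brighter, was seen in these 4 (8.0%), in 120 of all tested probes (4.07%) and in 4 of the equally bright ones (1.49%). AT5G40030 shows it, with 1.12, 1.25, 2.53 and 2.61 in petc, against 1.04, 1.04, 2.12 and 2.37 in WT. What the numbers mark is not given in the labels, and the part of this split in any difference between the groups was not tested.

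**Figure D4:**
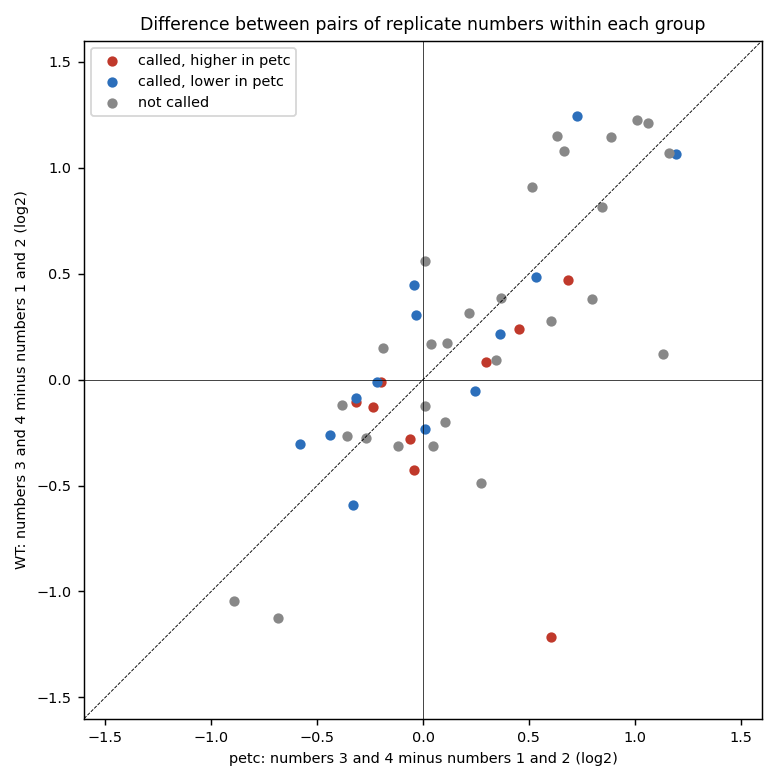
Difference of replicate numbers 3 and 4 from numbers 1 and 2 on the normalised log2 scale in petc (x axis) and WT (y axis) for the 50 genes, coloured by call. In 40 of the 50 genes the difference has the same sign in both groups, beside 2255 of the 2947 tested probes and 187 of the 269 equally bright ones. AT5G36470 is the called gene farthest from the diagonal (0.61 in petc and -1.22 in WT).

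Petc over WT had the same sign in numbers 1 and 2 as in numbers 3 and 4 for 38 of the 50 genes, beside 79.2% of all tested probes. It did so for all 22 called genes, a count that the call itself favours. Within each pair of numbers, the fold of 21 called genes differed by no more than 1.5 times between the pairs, and AT5G36470 was the exception. AT3G06200 and AT3G09080, which were not called, also differed between the pairs. AT3G06200 had -0.25 for numbers 1 and 2 and 0.76 for numbers 3 and 4, and AT3G09080 had -0.74 for numbers 1 and 2 and 0.022 for numbers 3 and 4. Whether these differences between pairs exceed the spread was not tested.

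**Figure D5:**
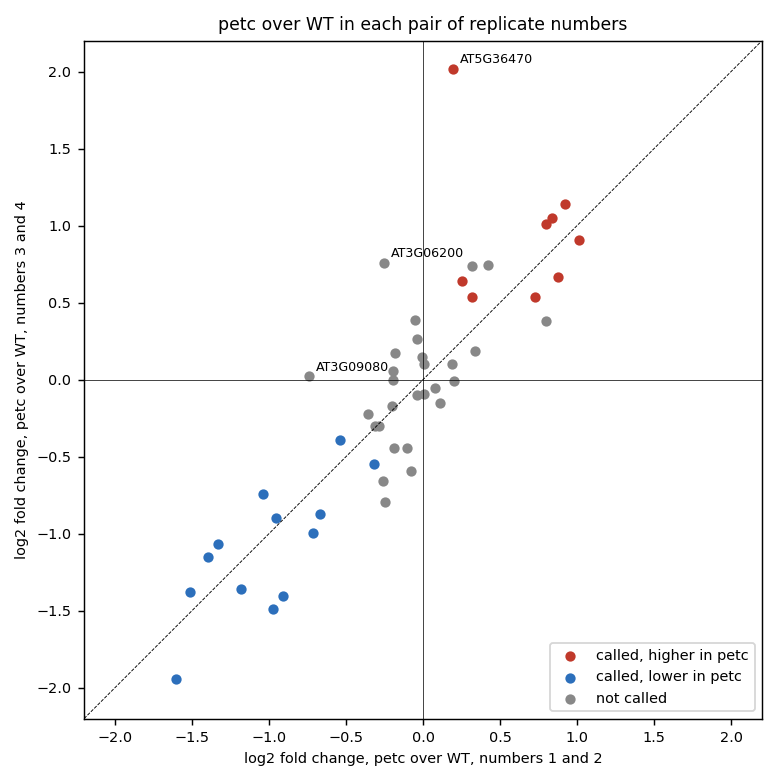
log2 fold change of petc over WT in numbers 1 and 2 (x axis) and in numbers 3 and 4 (y axis) for the 50 genes, with the line of equal values dashed. AT5G36470, at 0.19 and 2.02, lies farthest from the line.

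With numbers 1 and 2, and 3 and 4, of a group treated as correlated readings, 13 of the 50 genes were called, all of them among the 22. They were AT4G22830, AT4G17070, AT4G32060, XERICO and AT1G73120, higher in petc, and CCL, PRA1.B6, AT2G19280, AT4G03150, AT-HF, AT1G30700, AT1G32520 and AT4G16490, lower in petc. Among them the adjusted p under this model was lowest for AT4G03150 (8.38e-04) and AT2G19280 (0.00136). The share of all tested probes called under this model is not given here. With the means of each such pair, 2 against 2, limma called 0 of the 50 genes. An unadjusted p below 0.05 was found there for 15 of the 50 (30.0%), for 585 of all tested probes (19.9%) and for 42.4% of the equally bright ones.

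The ranking repeated on petc values, which did not choose the genes, kept most of them. Of the 50 genes, 39 were among the 60 brightest single-gene probes in petc. The 11 that were not included 7 called lower in petc: AT3G50350 at petc rank 176, AT1G30700 at 170, AT4G03150 at 143, AT1G32520 at 114, AT4G16490 at 112, AT-HF at 88 and AT1G32730 at 81. The others, AT5G66780, AT2G46300, ATSPS4F and AT3G51320, had ranks of 92, 82, 77 and 63. Before the 10 left-out genes were removed, 47 of the 60 were shared. Within WT, 44 of the 50 genes were among the brightest 60 in numbers 1 and 2 alone, 44 in numbers 3 and 4 alone, and 38 in both.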

How the data were processed

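The values used are the deposited intensities of the series' value table, linear and in arbitrary units, with 1 value per probe and sample. How the authors scanned, corrected, scaled or filtered them is not given in the sources used here. Per sample, 2978 to 3009 of 3439 probes were above 0 and 2 to 4 lay at the ceiling of 100. All sample columns were used. The number of arrays limits the precision.

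Gene names come from GEO's platform annotation, which pairs 692 probes with 1 gene, 870 with several and 1877 with none. All 50 genes were found in the RefSeq table of assembly TAIR10.1, used for names only, which gives 6 of them a symbol of their own. Its names placed 0 of the 50 in a function class by keywords, so roles come from general knowledge of the loci and the role groups were made after values were seen. Probe and gene sequences were not used here. Members and lists were chosen with earlier results of these data known.

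Values of 0 were taken as missing, the rest taken to log2 and quantile normalised, and probes with at least 3 values per group were fitted with limma 3.58.1 (lmFit, eBayes) in R 4.3.3 on all 8 samples, with Benjamini-Hochberg adjustment over 2947 probes at a threshold of 0.05. The script was tested on simulated data. Every gene is listed once, and values in every sample are given for the 10 brightest, for up to 8 largest rises and 8 largest falls among called genes, and for further genes chosen after their values were seen. Same-numbered samples deviated together from their group means (Pearson r = 0.586 to 0.649 across probes, every sample correlating best with its own number), so a replicate block was also fitted. This pairing is read from the data, as the labels are silent on it. Figures were drawn with matplotlib 3.10.9.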

Additional observations from a re-analysis of the deposited data

Results flagged for a closer look

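Within groups of 4 samples, 46 groups of values were tested for a single sample far from the others, and 4 stood out, where chance marks about 5% of groups. All are normalised log2 intensities. AT2G27290 was 5.68 in petc replicate 3, beside a median of 5.80 in the rest of petc. As deposited, petc replicate 3 did not stand alone, at 51.8 beside 52.003 in replicate 4. AT4G19900 was 4.15 in petc replicate 1, beside a median of 3.76 in the rest of petc. AT2G46220 was 1.77 in WT replicate 1, beside a median of 2.42 in the rest of WT. AT5G55570 was 0.89 in petc replicate 4, beside a median of 0.99 in the rest of petc. As deposited, this replicate did not stand alone either, at 2.07 beside 2.07 in petc replicates 1 and 2.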

How the results depend on the processing

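The count of 22 genes past the threshold stayed within 1.5 times with each other scaling, filter, offset or variance model, with 18 as deposited (9 higher, 9 lower) and 20 after median centring (10 higher, 10 lower). The replicate block, which takes same-numbered pairs as independent, gave 31 (12 higher, 19 lower), with 10 genes added and AT5G36470 lost. With numbers 1 and 2, and 3 and 4, of a group as correlated readings the count was 13. With the means of these pairs, 2 against 2, it was 0, while 15 of the 50 genes (30.0%) and 19.9% of all tested probes had an unadjusted p below 0.05 in limma. Without each sample in turn it was 16 to 21, and the median log2 fold change -0.148 to -0.036. That median, -0.069, was 0.078 as deposited, 0.052 after median centring, and -0.19 for genes chosen on WT 3 and 4 and compared in numbers 1 and 2. Genes chosen on one pair of WT numbers and tested on the other pair gave 30 of 49 called (chosen on 1 and 2) and 22 of 50 (chosen on 3 and 4), beside 35.1% and 23.2% of all tested probes in the same fits. These fits measure only the spread between the 2 samples of such a pair in each group, and what the pairs are is not given in the labels. The brightest 40 gave 15 calls of 31 genes and the brightest 80 gave 28 of 68, beside 27.9% of all tested probes. Shares of all tested probes called with other scalings, filters, models or without a sample are not given here. Those counts are therefore not compared with the table as a whole. The genes without overlap numbered 20 as deposited and 20 after median centring, again with no share of all tested probes given for these scalings. Of the brightest 60 single-gene probes in WT, 43 to 48 were also among the brightest 60 in petc. None of the 22 genes with a planned value in every sample (the 10 brightest and the largest rises and falls) changed direction under these alternatives, except AT3G09080, which was 0.022 in numbers 3 and 4 alone, but 7 genes that were not called did as deposited and after median centring: AT1G76450, AT5G06010, AT1G17160, AT1G73430, AT4G31930, AT3G54550 and AT3G51320.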
